A study of Mus musculus with 20 samples.

Results

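Microglia are the resident macrophages of the brain. They depend on signals from the receptor Csf1r, sense neurons through Cx3cr1, follow nucleotides with P2Y receptors such as P2ry12, and clear debris through Trem2, which signals by way of the adaptor Tyrobp. They are also a main source of the complement protein C1q in the brain. The transcription factors Spi1, Irf8 and Sall1 shape their identity.

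The genes described here are 32 genes that mark microglia, of which 31 have a probe under that name on the array. For each of the 31 genes the brightest of its probes was used, out of 45 probes of these genes and 39429 probes for 30210 gene names in all. Spi1 is on the array under its older symbol Sfpi1 and is described apart. The rule finds its members by gene name alone.

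The samples came from a slice of the frontal pole of male Swiss-Webster mice, which the labels call prefrontal cortex. Stressed mice had been placed in cages of unfamiliar group-housed males, and their controls were siblings that stayed undisturbed in a separate room. All mice, controls included, lived singly from 12 weeks of age and had 22 days to habituate. The groups were Stress-acute, taken 24 hours after a single encounter, Stress-8 days, Stress-13 days, and Stress-13 days + 5 days of rest, here called recovery. Each group had 3 stress pools with 3 control pools, and each pool held RNA of 3 mice. A stress pool and its control pool were hybridised on the same 2-colour array. Pool 1 of each group has 1 array, with stress in Cy5. The other pools were also hybridised with the dyes exchanged, so that 12 pools rest on 20 arrays. All values are log2 ratios of stress over control, so 0 means no difference and 1 means a doubling. In bulk tissue, fewer microglia and less RNA per microglial cell cannot be told apart.

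All 31 probes were well above background in both colours on all 20 arrays. Between 58.6% and 70.0% of all probes were so on an array. The 10 neuronal markers were also well above background on all arrays. Before averaging, originals and turned swaps correlated at -0.36 to -0.09 over all probes and at -0.34 to 0.12 over the 31 genes. Repeats of a pool thus tended to oppose each other over all probes. A dye effect cancels in the averages of pools 2 and 3 and remains in pool 1. Pool numbers coincide with slides and scan days in the array headers: every pool 1 lay on slide 1, every pool 2 on slides 2 and 3, and every pool 3 on slides 4 and 5, which were scanned on the second day. Each slide held 1 array of every time point. Of the 31 genes, Cx3cr1 and Ctss had the largest dye effect (0.18 for each, in favour of Cy5, over 8 pairs of arrays).

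Probe letters are shown first for Olfml3, Itgam and Siglech, whose brightest probes share letters with probes of other genes. The brightest probe of Olfml3, a secreted matrix protein that marks microglia, and the second brightest probe of Siglech, a sialic acid receptor, hold the same run of 8 letters. The run was found, after values were seen, by a search of the 50 probes whose values over the 12 pools were most like those of the Olfml3 probe: 25 of the 50 held it, against 47 of all 39429 probes (0.119%). Each stretch of 30 letters below has the shared run in capitals, and the mm9 coordinates beside it are those of the whole probe. The other 4 genes are shown as examples with high correlations to the Olfml3 probe.

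Olfml3 (chr3:103540414-103540473, minus strand): acacggcttttGTCTTCCCaaggctgcgtg
Siglech (chr7:63028608-63028667, plus strand): gtgtgtgaacaGTCTTCCCtggtggattcc
Csn3 (chr5:88361449-88361508, plus strand): agatctttctcGTCTTCCCttaccttttac
Tuba3a (chr6:125228298-125228357, minus strand): cgtccatttatGTCTTCCCcaccattggaa
Slc7a5 (chr8:124430996-124431055, minus strand): tgctcaagccgGTCTTCCCcacttgtccgg
Kctd14 (chr7:104603381-104603440, plus strand): cagggtgttccGTCTTCCCtgctcaagaag

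The array tables do not say in which exon or untranslated region a probe lies. Csn3 encodes a milk casein and Tuba3a a tubulin, and neither is a microglia gene. Over the 12 pools these probes correlated with the Olfml3 probe at 0.988 for Csn3, 0.986 for Tuba3a, 0.986 for Slc7a5, 0.97 for Kctd14 and 0.978 for Siglech. Of the 46 other probes with the run, 25 were those the search had picked for their high correlation, so their values say nothing of the run. Of the remaining 21, 4 (19.0%) correlated with the Olfml3 probe above 0.5, and their median correlation was 0.27. Among the 39344 probes outside the 50 that lacked the run, 4.83% were above 0.5 and the median was 0.04. Most of the 21 thus did not follow the Olfml3 probe closely. They were also brighter than the probes without the run, with a median log2 signal of 9.95 against 7.99. These correlations describe 12 pools that share arrays and normalization. Why the probes move together was not tested.

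The brightest probes of Itgam, the integrin chain known as CD11b, and of Siglech hold letters that many probes of other genes share. The stretches below are shown for that reason, with the shared run of 15 letters in capitals and the mm9 coordinates of the whole probe.

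Itgam (chr7:135261755-135261814, plus strand): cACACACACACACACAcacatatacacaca
Siglech (chr7:63034088-63034147, plus strand): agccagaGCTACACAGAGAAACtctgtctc

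The Itgam run, a CA repeat, was found in 37 other probes, with a median correlation of 0.88 with the Itgam probe. The Siglech run was found in 8 other probes, with a median correlation of 0.83. These other probes were bright, with a median log2 signal of 13.73 for the Itgam run and 15.41 for the Siglech run. Probes as bright that lack the runs were not compared. Of the 31 brightest probes, the Itgam probe shared a run of 15 letters with 44 probes of other genes, the Siglech probe with 15, and no other with more than 2. Both were very bright, with a mean log2 signal of 14.43 for Itgam and 14.54 for Siglech, above 98.6% and 98.7% of all probes. The next probes of these genes had 8.02 for Itgam and, for the third Siglech probe, 9.15.

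**Figure D1:**
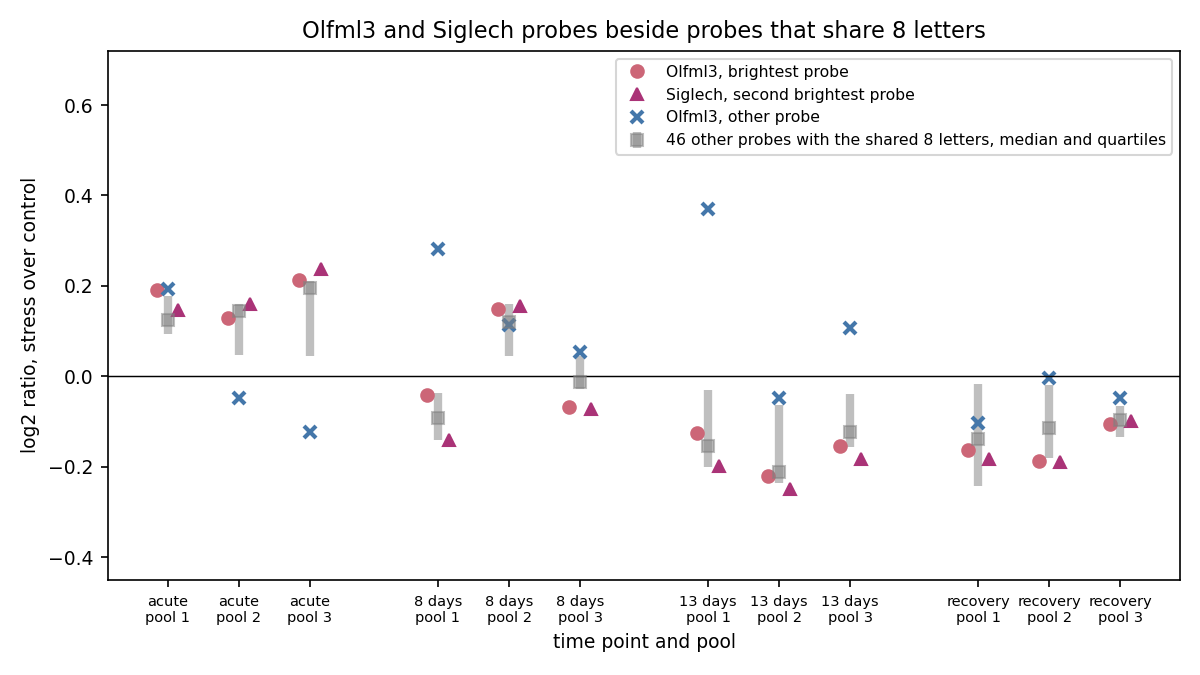
The plot shows the log2 ratio of stress over control in each of the 12 pools for the brightest Olfml3 probe, the other Olfml3 probe, the second brightest Siglech probe and, in grey, the median and quartiles of the 46 other probes that hold the shared 8 letters. The brightest Olfml3 probe runs from 0.21 down to -0.22 beside the grey squares, 25 of whose 46 probes had been picked for following it, and the other Olfml3 probe does not follow it.

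At the acute time point the brightest Olfml3 probe read 0.19, 0.13 and 0.21 in pools 1, 2 and 3. At 8 days it read -0.04, 0.15 and -0.07. At 13 days it read -0.12, -0.22 and -0.15, and in recovery -0.16, -0.19 and -0.10. All 3 pools were above 0 at the acute time point and all 3 were below 0 at 13 days and in recovery. The fitted ratios were 0.18 ± 0.04 (SE, n = 3 pools, limma, adjusted p = 0.54) at the acute time point, -0.17 ± 0.04 (adjusted p = 0.44) at 13 days and -0.15 ± 0.04 (adjusted p = 1.00) in recovery. The 13-day ratio was lower than the acute ratio by a log2 difference of -0.34 ± 0.06 (limma, adjusted p = 0.16), the lowest adjusted p of any of the 31 genes in any comparison.

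The other Olfml3 probe read 0.19, -0.05 and -0.12 in the acute pools and 0.37, -0.05 and 0.11 in the 13-day pools. It was well above background on all 20 arrays, had no correlation with the brightest probe (r = 0.002 over 12 pools), and gave 0.14 at 13 days, opposite in sign. With that probe the 13-day ratio was higher than the acute ratio by 0.14. The 21 probes with the shared run that the search had not picked had median ratios of 0.03 at the acute time point, -0.02 at 13 days and -0.01 in recovery, nearer to 0 than those of the brightest Olfml3 probe. The part of the shared letters in the Olfml3 values was not tested.

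The next question was whether any of the 31 genes differed between stressed and control mice at each time point. A call needed a log2 ratio of more than 0.5 in either direction, with a limma p below 0.05 after Benjamini-Hochberg adjustment over all probes. Of the 31 genes, 0 were called at any of the 4 time points or in either contrast between time points. Over all 39429 probes the same rule called 0.00254% at the acute time point, 0% at 8 days, 0.0228% at 13 days, 0% in recovery, 0.00254% for 13 days minus acute and 0% for recovery minus 13 days. The count of 0 of 31 is therefore near the background.

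Without adjustment, 2 of 31 genes had a p under 0.05 at the acute time point, where 6.16% of the 17131 genes well above background on all arrays did. At 8 days it was 0 of 31 beside 3.94%, at 13 days 4 of 31 beside 10.8%, and in recovery 1 of 31 beside 4.36%. For 13 days minus acute it was 3 of 31 beside 6.05%, and for recovery minus 13 days 1 of 31 beside 7.24%. As shares of the 31 genes these were 6.45%, 0%, 12.9%, 3.23%, 9.68% and 3.23%, above the background in 3 of the 6 comparisons and below it in the other 3.

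Over the 31 genes and 4 time points, the 95% intervals of limma ran from -0.32, the lower bound of Laptm5 at 13 days, to 0.29, the upper bound of Sall1 in recovery. In folds these bounds are 0.80 and 1.22. All 31 intervals lay within 0.5 of 0 at each time point. These bounds depend on the normalization: with the Feature Extraction ratio the lowest was -0.64 and 29 of 31 genes stayed within 0.5, and with median centring in place of loess the bounds were -1.20 and 1.37 and 5 of 31 did. The fitted ratios themselves ran from -0.17 to 0.18, and the median SE was 0.05.

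**Figure D2:**
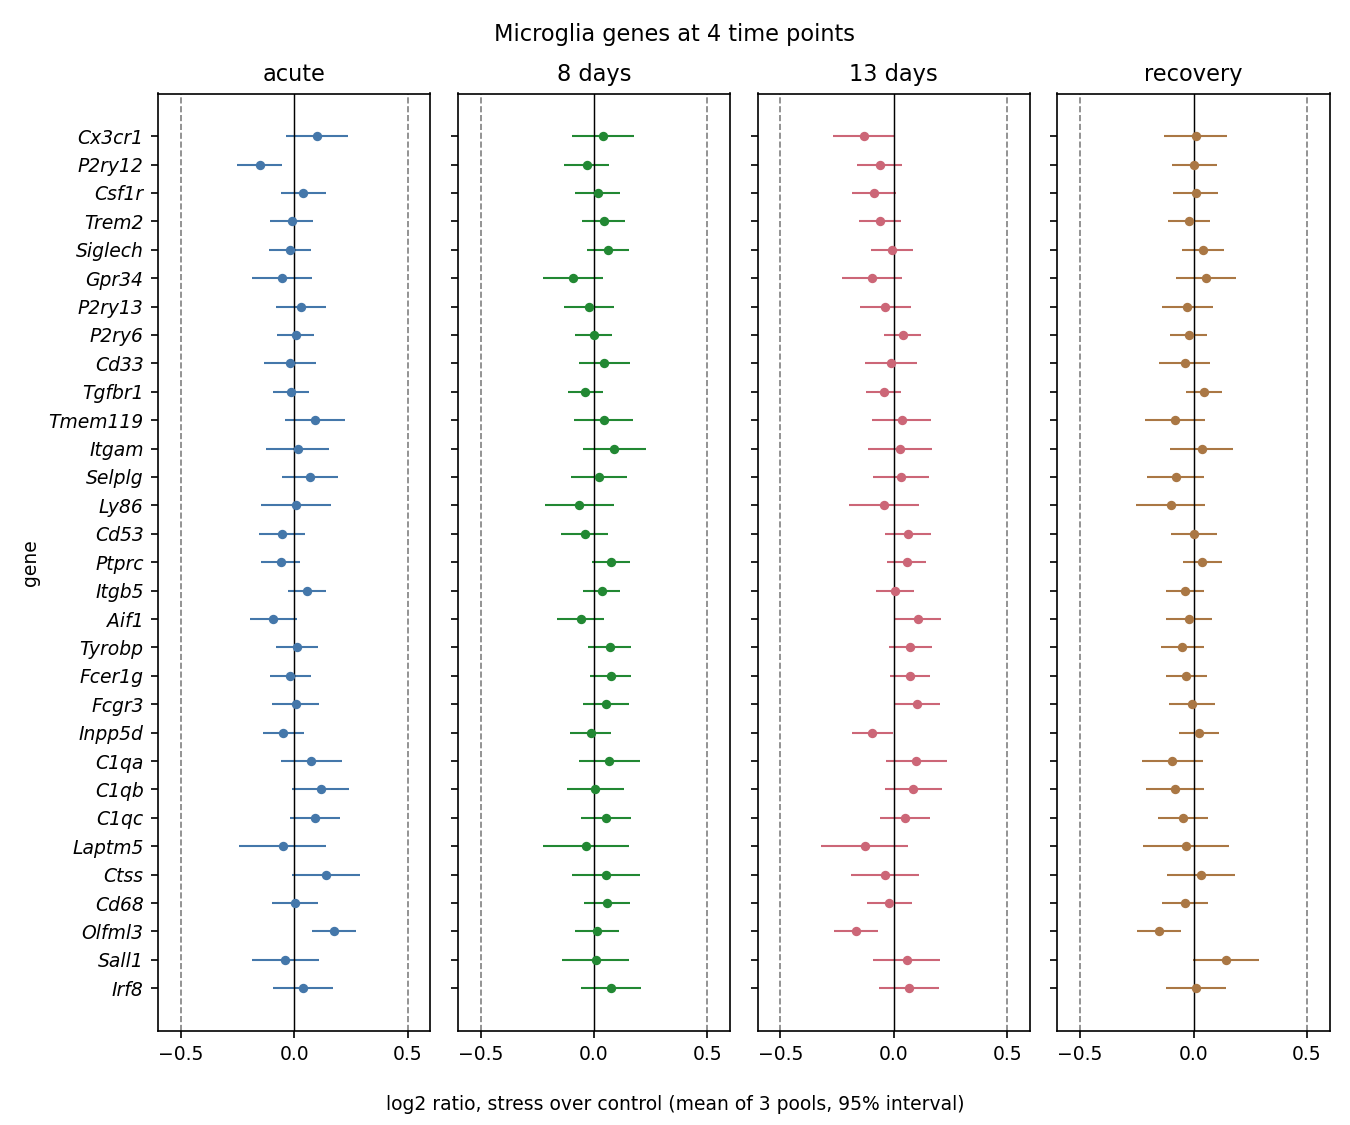
The plot shows, for each of the 31 genes and 4 time points, the log2 ratio of stress over control as the mean of 3 pools with its 95% interval from limma, and dashed lines at the size needed for a call. All intervals end inside the dashed lines, from -0.32 to 0.29.

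The median over the 31 genes was 0.01 at the acute time point, 0.03 at 8 days, 0.00 at 13 days and -0.02 in recovery. By pool the median of the 31 genes ran from -0.06 in pool 3 of recovery to 0.11 in pool 1 of the acute group, a spread wider than that of the 4 medians.

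Of the 10 receptors, 1 was above 0 at 13 days, P2ry6, a receptor for uracil nucleotides, at 0.04, and their median was -0.05. Of all 30210 genes, 14864 were above 0 at 13 days. Siglech, whose brightest probe shares letters with probes of other genes, was among the receptors below 0, at -0.01. Of the 7 surface and adhesion genes, 6 were above 0, with a median of 0.03. With median centring in place of loess 6 of the 10 receptors were below 0 and their median was -0.0067. In 7 of the 10, Cx3cr1, P2ry12, Csf1r, Trem2, Gpr34, P2ry13 and Tgfbr1, all 3 pools were below 0. The median of the 10 was -0.01 at the acute time point, 0.01 at 8 days and 0.01 in recovery. None of the 10 was called at any time.

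Cx3cr1, the fractalkine receptor, read 0.19, -0.05 and 0.16 in the acute pools, 0.16, 0.02 and -0.07 at 8 days, -0.03, -0.16 and -0.21 at 13 days, and 0.15, 0.01 and -0.14 in recovery. As read, pools of the acute and 13-day groups overlapped, since acute pool 2 lay below 13-day pool 1. Over the 8 pairs of arrays with a swap, Cx3cr1 had a mean dye effect of 0.18 (SD 0.08) in favour of Cy5. Pool 1 has no swap, so its own dye effect was not measured. The part of the dye in these values was not tested. Its 13-day ratio was lower than its acute ratio by a log2 difference of -0.23 ± 0.09 (limma, adjusted p = 1.00). A second, dimmer Cx3cr1 probe read 0.26, -0.04 and 0.14 at 13 days, and correlated with the first at 0.42 over 12 pools. With a dye term over 20 arrays, the ratio of the first probe was 0.05 at the acute time point. At 13 days it was then -0.19 (limma, adjusted p = 0.15).

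P2ry12, the ADP receptor that guides microglial processes to injury, read -0.07, -0.19 and -0.19 in the acute pools, the lowest fitted ratio of the acute group. All 3 pools were below 0, at -0.15 ± 0.05 (limma, adjusted p = 0.77). At 8 days it read 0.02, -0.05 and -0.07, at 13 days -0.05, -0.07 and -0.07, and in recovery 0.14, -0.05 and -0.08. The acute values of pools 2 and 3 were the lowest of its 12.

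Csf1r, the receptor for the growth factors Csf1 and Il34, read 0.11, -0.00 and 0.01 in the acute pools, 0.05, 0.01 and -0.02 at 8 days, -0.01, -0.06 and -0.19 at 13 days, and -0.06, 0.11 and -0.02 in recovery. Its other probes gave 13-day values of 0.06, -0.11 and -0.05 and of 0.11, -0.16 and -0.06, so their pools lay on either side of 0.

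Trem2, the lipid-sensing receptor, read 0.05, -0.03 and -0.05 in the acute pools, 0.12, 0.09 and -0.08 at 8 days, -0.01, -0.07 and -0.10 at 13 days, and 0.02, -0.04 and -0.04 in recovery. Its fitted ratios stayed between -0.06 and 0.04. The other receptors were Gpr34, P2ry13, Cd33, Siglech and the TGF-beta receptor Tgfbr1. Of these, Gpr34 had all 3 pools below 0 at 8 days as well as at 13 days, with fitted ratios of -0.09 and -0.10.

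**Figure D3:**
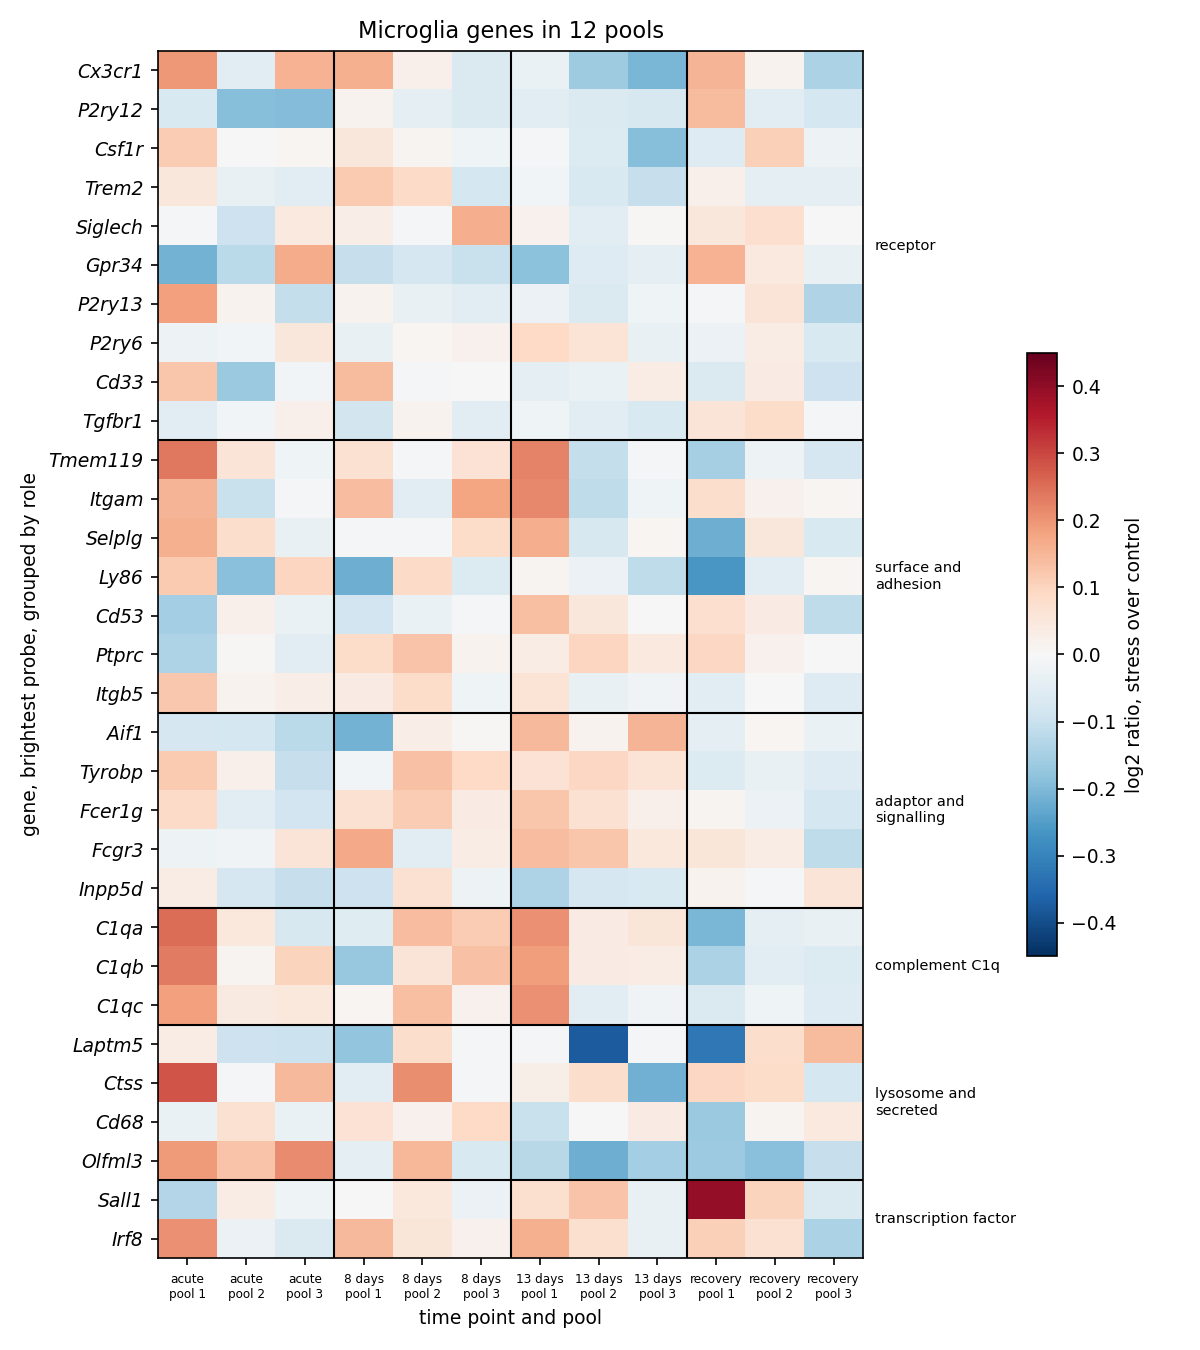
The heat map shows the log2 ratio of stress over control of each of the 31 genes (rows, grouped by role) in each of the 12 pools (columns), from blue below 0 to red above 0. At 13 days 1 of the 10 receptors and 6 of the 7 surface and adhesion genes had a mean above 0, beside 14864 of all 30210 genes. The C1q chains were redder in acute pool 1 and 13-day pool 1 than in the other pools of those groups.

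Of the 5 genes grouped as adaptor and signalling, 4 were above 0 at 13 days, beside 14864 of all 30210 genes. The median of the 5 was 0.07, and 0.15 with median centring. Fcgr3 is itself a receptor. With it moved to the receptors, a grouping chosen after seeing the data, 2 of 11 receptors (median -0.05) and 3 of 4 adaptor and signalling genes (median 0.07) were above 0. Tyrobp, the adaptor of Trem2, read 0.12, 0.02 and -0.10 in the acute pools, -0.01, 0.13 and 0.09 at 8 days, 0.07, 0.09 and 0.06 at 13 days, and -0.06, -0.03 and -0.06 in recovery. Its 13-day pools were all above 0 and its recovery pools all below. The fitted ratios were 0.07 at 13 days and -0.05 in recovery, and neither was called. The difference between the receptors and the adaptors was not tested.

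Aif1, the calcium-binding protein Iba1 that is the usual stain for microglia, read -0.08, -0.08 and -0.12 in the acute pools and 0.15, 0.02 and 0.15 at 13 days. These pools did not overlap, but how often this holds among all genes was not counted. Aif1 was also among the genes with the lowest p for 13 days minus acute, so the split was seen in a gene that stood out in these values. At 8 days it read -0.21, 0.03 and 0.01, and in recovery -0.04, 0.01 and -0.03. The 13-day ratio was 0.11 ± 0.05 (limma, adjusted p = 0.68), and it was higher than the acute ratio by 0.20 ± 0.07 (limma, adjusted p = 0.94).

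Fcgr3, an Fc receptor for antibodies, read 0.14, 0.12 and 0.05 at 13 days, for 0.10 ± 0.05 (limma, adjusted p = 0.69). Fcer1g, the signalling chain of Fc receptors, read 0.09, -0.05 and -0.09 in the acute pools, 0.07, 0.12 and 0.04 at 8 days, 0.13, 0.07 and 0.02 at 13 days, and 0.01, -0.03 and -0.08 in recovery. Both genes thus had all 3 pools above 0 at 13 days. Inpp5d, the phosphatase SHIP1 that dampens such signals, read 0.03, -0.08 and -0.10 in the acute pools, -0.09, 0.07 and -0.02 at 8 days, -0.14, -0.08 and -0.07 at 13 days, and 0.02, -0.01 and 0.06 in recovery. Its 13-day ratio was -0.09 ± 0.04 (limma, adjusted p = 0.67). Of the 5 genes Inpp5d was the only one with a 13-day mean below 0.

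At 13 days 17 of the 31 genes had the same sign in all 3 pools, 7 above 0 and 10 below. Of the 17131 genes well above background on all arrays, 32.7% did so. At the acute time point it was 6 of 31 beside 26.2%, at 8 days 7 of 31 beside 18.4%, and in recovery 9 of 31 beside 23.7%. The 13-day share of 54.8% was thus the one that lay furthest above the background, and it held genes of either direction. The 7 above 0 were Aif1, Tyrobp, Fcer1g, Fcgr3, C1qa, C1qb and Ptprc. The 10 below 0 were the 7 receptors named above, Inpp5d, Olfml3 and the lysosomal membrane protein Laptm5. The count rests on the brightest probes and the main normalization, and no alternative was run for it. At 13 days the other probes of Olfml3, Cx3cr1, Csf1r and Tgfbr1 did not have all 3 pools below 0. The other Laptm5 probe did.

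C1qa, C1qb and C1qc encode the chains of C1q, which opens the classical complement pathway and tags synapses for removal. C1qa read 0.25, 0.05 and -0.07 in the acute pools, -0.05, 0.14 and 0.11 at 8 days, 0.20, 0.04 and 0.06 at 13 days, and -0.21, -0.04 and -0.03 in recovery. C1qb read 0.23, 0.01 and 0.10, then -0.17, 0.06 and 0.13, then 0.19, 0.04 and 0.03, and in recovery -0.14, -0.05 and -0.06. C1qc read 0.18, 0.04 and 0.05, then 0.01, 0.14 and 0.02, then 0.21, -0.05 and -0.02, and in recovery -0.07, -0.02 and -0.06.

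In recovery all 3 chains were below 0 in all 3 pools, with fitted ratios of -0.09 for C1qa, -0.08 for C1qb and -0.05 for C1qc. At 13 days the ratios were 0.10, 0.09 and 0.05. The recovery ratio of C1qa differed from its 13-day ratio by -0.19 ± 0.09 (limma, adjusted p = 1.00). C1qb differed by -0.17 and C1qc by -0.10, and none of these passed the test. The largest values of the chains, positive and negative, were those of pool 1, which has no dye swap. Over the 8 pairs with a swap, the mean dye effect was -0.05 for C1qa and for C1qb, in favour of Cy3. For C1qc it was 0.08, in favour of Cy5. The part of the dye in the values of pool 1 was not tested.

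The surface genes Tmem119 and Selplg moved together more closely than any other pair of the 465 pairs among the 31 genes (r = 0.91 over 12 pools). Tmem119, a membrane protein that separates microglia from other macrophages, read 0.24, 0.06 and -0.02 in the acute pools, 0.07, -0.01 and 0.07 at 8 days, 0.22, -0.11 and -0.01 at 13 days, and -0.15, -0.02 and -0.08 in recovery. Selplg, the ligand of P-selectin, read 0.16, 0.08 and -0.03, then -0.01, -0.00 and 0.08, then 0.16, -0.07 and 0.01, and in recovery -0.22, 0.05 and -0.07. A second Selplg probe had r = 0.80 with the first. Of the other surface genes, Ptprc, the phosphatase CD45, read -0.14, 0.01 and -0.05 in the acute pools, 0.08, 0.13 and 0.02 at 8 days, 0.03, 0.10 and 0.04 at 13 days, and 0.09, 0.02 and 0.00 in recovery. It was above 0 in all 3 pools at each of the later time points, with 0.07 ± 0.04 at 8 days (limma, adjusted p = 1.00).

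In mm9 the Tmem119 and Selplg probes lie 23.8 kb apart on chromosome 5. Within the 8 pools other than pool 1 the correlation of the pair was also 0.91. In those 8 pools, pairs far apart on a chromosome reached as high, with 0.94 for Itgam and Siglech and 0.92 for Fcer1g and Ptprc. Of the 31 genes, 6 pairs lie within 200 kb of each other. The C1q probes lie within 15.8 kb on chromosome 4 and correlated at 0.83 for C1qa with C1qb, 0.81 for C1qa with C1qc and 0.75 for C1qb with C1qc. Without pool 1 these were 0.45, 0.50 and 0.49. P2ry12 and P2ry13, 8.54 kb apart on chromosome 3, correlated at 0.18, and Fcer1g and Fcgr3, 176 kb apart on chromosome 1, at 0.40. Over all 465 pairs the median was 0.11, and over 54265 pairs of well measured genes within 200 kb it was 0.08.

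**Figure D4:**
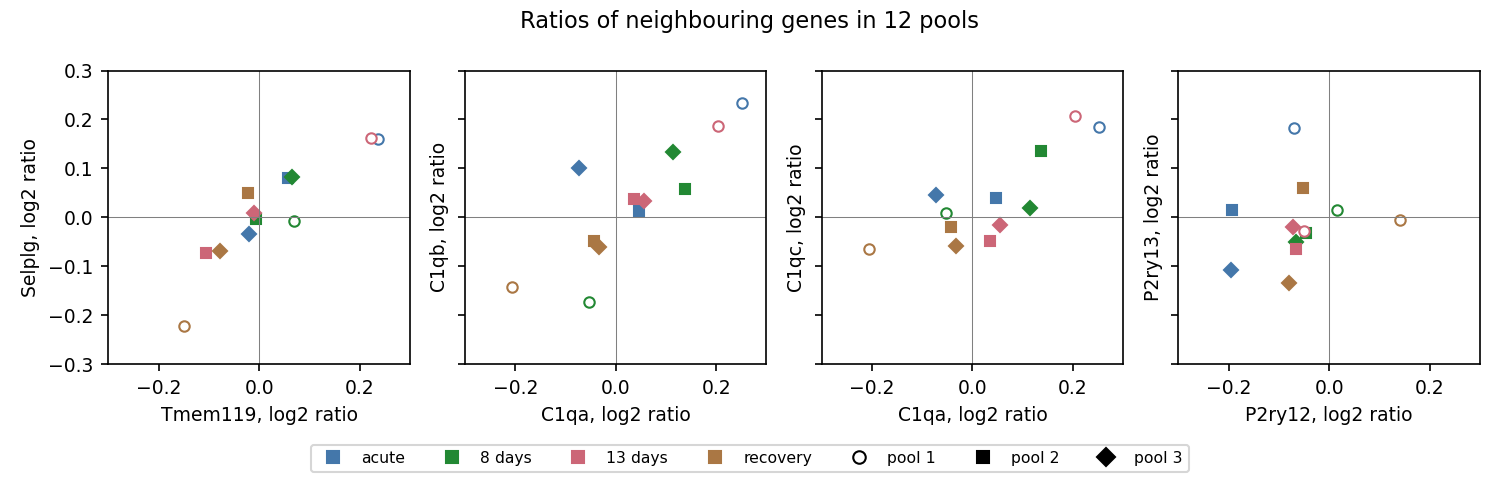
Each panel plots the log2 ratio of stress over control of one gene against that of its chromosomal neighbour in the 12 pools, with colours for time points and open circles for pool 1. Tmem119 and Selplg lie along a line with or without pool 1 (r = 0.91 each), the C1q chains less so without it (0.45 and 0.50), and P2ry12 and P2ry13 do not (0.18).

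The 31 genes as a whole moved together weakly. Their mean pairwise correlation was 0.10 over the 12 pools, against 0.01 for all genes. Lists for other cell types gave 0.04 for neurons, 0.09 for endothelium, 0.11 for astrocytes, 0.16 for macrophages and monocytes and 0.19 for lymphocytes. Of the 9 lymphocyte genes, 3 were well above background on all arrays. Oligodendrocytes had 0.38, neutrophils, whose acute pool 1 stood far from the rest, 0.75, and red cells 0.95. The highest correlation after that of Tmem119 with Selplg was that of C1qc with the integrin chain Itgb5 (r = 0.91), and the lowest was that of C1qa with Gpr34 (r = -0.85). These values describe 12 pools that share slides and dyes.

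Of the 4 lysosomal and secreted genes, 0 had a 13-day mean above 0, beside 14864 of all 30210 genes. Cd68, the macrophage lysosomal protein, read -0.03, 0.07 and -0.03 in the acute pools, 0.07, 0.02 and 0.09 at 8 days, -0.10, 0.00 and 0.04 at 13 days, and -0.17, 0.01 and 0.04 in recovery, with fitted ratios between -0.04 and 0.06. Ctss, the protease cathepsin S, read 0.28, -0.01 and 0.14 in the acute pools, then -0.05, 0.21 and -0.01, then 0.03, 0.08 and -0.22, and in recovery 0.09, 0.08 and -0.08. Laptm5 read -0.01, -0.37 and -0.01 at 13 days and -0.32, 0.08 and 0.14 in recovery, so that in each group 1 pool stood far below the others. A second Laptm5 probe gave -0.12, -0.28 and -0.02 at 13 days and followed the first over the pools (r = 0.93).

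Of the transcription factors, Irf8 read 0.21, -0.03 and -0.07 in the acute pools, 0.15, 0.05 and 0.02 at 8 days, 0.16, 0.07 and -0.03 at 13 days, and 0.11, 0.07 and -0.14 in recovery. Sall1 read -0.13, 0.03 and -0.02, then -0.00, 0.05 and -0.02, then 0.07, 0.13 and -0.03, and in recovery 0.40, 0.10 and -0.07. Its recovery ratio was 0.14, and pool 1 was the highest of the 3. Spi1, the factor PU.1, was measured by a probe well above background in both colours on 4 of 20 arrays. It read -0.05, 0.10 and 0.01 in the acute pools, -0.19, 0.06 and 0.03 at 8 days, -0.01, 0.01 and 0.01 at 13 days, and -0.05, -0.15 and 0.06 in recovery. Its fitted ratios were 0.02 at the acute time point, -0.03 at 8 days, 0.00 at 13 days and -0.05 in recovery, close to background signal.

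Genes of the surrounding pathways gave 0 calls at the 4 time points and in both contrasts between them. Of 16 ligands and coreceptors, among them Csf1, Il34, Cx3cl1 and Tgfb1, 0 were called at any time. Csf1 had the lowest p of these at 13 days, at 0.12 ± 0.04 (limma, adjusted p = 0.56). Of 12 complement genes beyond C1q, 0 were called. C4b, which acts after C1q in the classical pathway, had the lowest p of them at 8 days, at 0.23 ± 0.06 (limma, adjusted p = 1.00), and at 13 days, at 0.14 ± 0.06 (limma, adjusted p = 0.66). Of 20 genes of disease-associated microglia 0 were called, and Lpl, a lipase, had the lowest p of them at the acute time point, at -0.31 ± 0.08 (limma, adjusted p = 0.57). Of 24 inflammatory genes, of which 11 were well above background on all arrays, 0 were called. Cd14, the endotoxin coreceptor, had the lowest p of these at 13 days, at 0.21 ± 0.06 (limma, adjusted p = 0.48), and Casp1 at the acute time point, at -0.16 ± 0.05 (limma, adjusted p = 0.73).

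Markers of other cell types were compared in the same way. The 6 red cell genes were all called at 13 days, with a median of 1.42 and pool medians of 1.24 to 1.58, and the beta globin listed as Beta-s stood at 1.43 ± 0.13 (limma, adjusted p = 0.00245). The 10 oligodendrocyte genes were all above 0 at the acute time point, with a median of 0.23, beside 15197 of all 30210 genes above 0. Mobp, a myelin protein, reached 0.49 ± 0.05 there (limma, adjusted p = 0.0103), just under the limit of size, and its 13-day ratio was lower than its acute ratio by a log2 difference of -0.71 ± 0.07 (limma, adjusted p = 0.0131).

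The 10 neutrophil genes had an acute median of -0.54, with -1.73 in pool 1 against 0.01 and 0.07 in pools 2 and 3. The 13 macrophage and monocyte genes, of which 9 were well above background on all arrays, had medians of -0.06 at the acute time point and 0.05 at 13 days, with 0 called. At 13 days 8 of 10 astrocyte genes were below 0, with a median of -0.14, beside 15346 of all 30210 genes below 0. The 10 endothelial genes, the 10 neuronal genes and the 9 lymphocyte genes had 0 calls at every time point, with 13-day medians of 0.06, -0.00 and -0.01. The part of these cells in the values of the 31 genes was not tested.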

How the data were processed

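Intensities of 20 2-colour Agilent arrays were extracted by the authors with Feature Extraction 10.10.1.1, per the file headers, which also give a log10 ratio of Cy5 over Cy3. The authors also deposited a table of log2 ratios, made with limma by normexp, loess and Aquantile per their methods; the normexp offset is not given in the sources used here. Both ratios were used as alternatives.

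From the intensities, background was corrected with normexp (offset 50), arrays were normalized with loess and Aquantile, spots marked as outliers were set to missing, and repeated spots among 43020 were combined into 39429 probes (R 4.3.3, limma 3.58.1). Ratios were turned to stress over control and swaps averaged with their originals, which gave 12 pools. limma was fitted with 1 coefficient per time point, and p-values were adjusted by Benjamini-Hochberg over all probes. Scripts were tested on simulated data. The number of arrays limits the precision, and pools are samples of 3 mice each. Of 31 genes, each was measured by its brightest probe. Values in every pool are given for a set of 14 well-known genes and for the 3 genes with the lowest p in each comparison. Of the pathway, red cell and oligodendrocyte lists, some of the called genes or of those with the lowest p are named. Of the remaining cell type lists only counts and medians are given. Members and lists were chosen with earlier results of these data known. Alternatives covered background, normalization, dye, slide, filter, probe choice, variance and left-out pools.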

Additional observations from a re-analysis of the deposited data

How the results depend on the processing

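Calls among the 31 genes were 0 in all 132 alternative values, the replicate block included, and the lowest adjusted p was 0.0744 (limma, Olfml3 at the acute time point with original arrays alone). Of 126 alternative medians, 114 moved by less than 1 SD between pools, 12 moved by more and 18 changed sign. The 114 include alternatives that could not move a median. Leaving out Aquantile gave the same ratios, and the filter kept all 31 probes. The replicate block, the variance options and fits of each time point on its own pools change only the spread. With median centring in place of loess, the medians were 0.13 at the acute time point, -0.0160 at 8 days and 0.0367 in recovery. The 8-day median was 0.0562 with no background correction, 0.0489 with the Feature Extraction ratio, 0.0172 with the mean of all probes of a gene and 0.0172 with a dye term over 20 arrays. The recovery median was 0.0252 with original arrays alone. Without replicate 1 of every time point the 13-day median was -0.03. Leaving out 1 pool at a time gave medians of 0.0146 to 0.0328 at 8 days and -0.0318 to 0.0442 at 13 days, and 0 calls throughout. The cause of these shifts was not tested.

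In the alternatives whose intervals were checked, those of all genes kept stayed within 0.5 of 0, with 2 exceptions. With the Feature Extraction ratio 29 of 31 did, and with median centring 5 of 31 did (bounds -1.20 and 1.37). Intervals were not checked in the fits that left out 1 pool or used each time point on its own pools. Receptors below 0 at 13 days numbered 6 to 9 of 10 over the alternatives, with medians of -0.07 to -0.0067, and the adaptor and signalling medians ran from 0.07 to 0.15. Pool numbers coincide with slides and scan days. Deviations of same-numbered pools from the mean of their time point were correlated over all probes. The range was 0.09 to 0.51 for pool 1, -0.12 to 0.37 for pool 2 and 0.03 to 0.45 for pool 3. Over the 31 genes these ranges were -0.33 to 0.52, -0.33 to 0.13 and -0.19 to 0.49. With the replicate block, and with the slide as a block over 20 arrays, calls were 0 in all 6 comparisons. Using other probes for Olfml3, Itgam and Siglech, or leaving these genes out, was chosen after seeing the data and gave 0 calls.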
